A study of Homo sapiens with 2 samples.

Results

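The 10 genes described here encode the topoisomerases other than TOP3B, the proteins that work with TOP3A, and the enzymes that remove topoisomerases trapped on nucleic acid. They were taken by exact symbol (TOP1, TOP1MT, TOP2A, TOP2B, TOP3A, RMI1, RMI2, BLM, TDP1 and TDP2) from the 13075 genes of the deposited table. Each symbol was found once, and all 10 genes passed the floor of 5 FPKM in at least 1 library that left 11990 genes. The RIP library held RNA pulled down with a monoclonal anti-FLAG M2 antibody from HEK293 cells, a human embryonic kidney line, at passage 15, transfected with FLAG tagged R338W TOP3B. The INPUT library held RNA of such transfected cells, also at passage 15, with no antibody. Both libraries thus come from cells that carry the transfected bait besides their own TOP3B gene. A pulldown from cells without the tag was not analysed here. There was 1 RIP library and 1 INPUT library, so no value below has a replicate error, no p-value is given, and each difference is one between 2 libraries.

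Topoisomerases change the winding of nucleic acids by cutting a strand and resealing it, with the cut end held on a tyrosine of the enzyme. Type IB and type IA enzymes cut a single strand and type II enzymes cut both, and TOP3A joins BLM, RMI1 and RMI2 in the dissolvasome, which takes apart joined DNA duplexes after recombination. When resealing fails the enzyme stays bound to the strand as a cleavage complex, and TDP1 and TDP2 cut the bond to the tyrosine. The study asked which RNAs carry such complexes of TOP3B, and the values below are therefore the amounts of these genes' own transcripts in the pulldown, not the binding of their proteins.

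The coding sequence around the catalytic tyrosine is shown because the bait carries its change there and because it shows how alike the family members are where they act. The codon of the tyrosine is in capitals, and in TOP3B and TOP3A so is the codon of the arginine that R338W replaces in TOP3B and its counterpart in TOP3A. All are reference sequences of GENCODE transcripts on GRCh38, read 5′ to 3′ on the coding strand, and they do not show the transfected copy. The positions of the tyrosines in TOP3B, TOP3A, TOP2A and TOP1 come from general knowledge of these enzymes, and only the presence of a tyrosine codon there was checked.
TOP3B: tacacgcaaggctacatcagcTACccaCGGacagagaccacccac
TOP3A: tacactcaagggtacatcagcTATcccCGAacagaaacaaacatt
TOP2A: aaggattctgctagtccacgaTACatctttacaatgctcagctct
TOP2B: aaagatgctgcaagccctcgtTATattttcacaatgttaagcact
TOP1: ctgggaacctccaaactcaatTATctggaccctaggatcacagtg
The TOP3B stretch lies in exon 10 (chr22:21964230-21964274, minus strand) and the TOP1 stretch in exon 20 (chr20:41122106-41122150, plus strand). Those of TOP3A (chr17:18292819-18294713, minus strand), TOP2A (chr17:40401078-40402946, minus strand) and TOP2B (chr3:25623743-25624337, minus strand) cross an intron. TOP3B and TOP3A had the same base at 34 of 45 positions, and TOP2A and TOP2B at 33 of 45. Over whole principal transcripts, TOP3B and TOP3A shared no run of 50 bases, and neither did TOP2A and TOP2B or TOP1 and TOP1MT.

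The bait's transcript was at 30666 FPKM in the RIP library, against 15062 FPKM in the INPUT library, a log2 ratio of 1.03. FPKM corrects the number of fragments for transcript length and library size, and the ratio used throughout is log2((RIP + 1)/(INPUT + 1)). In the INPUT the TOP3B transcript was 265 times as abundant per length as that of TOP3A, its nearest relative. Estimated depth was 24750000 fragments for the RIP and 15300000 for the INPUT. Of 8 marker genes expected in HEK293 cells or embryonic kidney, 6 were in the table. Their summed level was 995 FPKM in the RIP library, against 782 FPKM in the INPUT library. VIM made up most of that sum (679 and 544 FPKM in RIP and INPUT). Of the 6, 5 were higher in the RIP and 1, LIN28B, was lower (9.31 and 15.7 FPKM in RIP and INPUT). PAX2 and SIX2 gave no value. Of the markers of other cells, the table held values for 1 of 7 of kidney tubule (LRP2, 5.49 and 1.96 FPKM in RIP and INPUT), 1 of 5 of fibroblasts (COL1A1, 7.45 and 2.19 FPKM in RIP and INPUT), 0 of 5 of liver and 0 of 6 of blood.

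Against this background the 10 transcripts lay close to the INPUT, with BLM highest and RMI1 lowest in ratio. At a limit of 1.5-fold, BLM was higher in the RIP and RMI1 lower, which is 1 of 10 genes in each direction. Over all 11990 genes, 19.9% were at least 1.5-fold higher and 10.2% at least 1.5-fold lower, so these counts are near the share among all genes. Among protein-coding genes alone, to which all 10 belong, 19.2% were at least 1.5-fold higher and 7.01% lower. At 2-fold, 0 of 10 were higher and 0 of 10 lower, where 4.9% of all genes were higher and 2.5% lower. The median ratio of the 10 genes was 0.17, and that of all genes tested 0.13, with quartiles of -0.25 and 0.50. Ratios were above 0 for 7 of the 10 genes and below 0 for 3, and 58.7% of all genes tested were above 0. Set against the median gene, 5 of the 10 were above and 5 below.

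**Figure D1:**
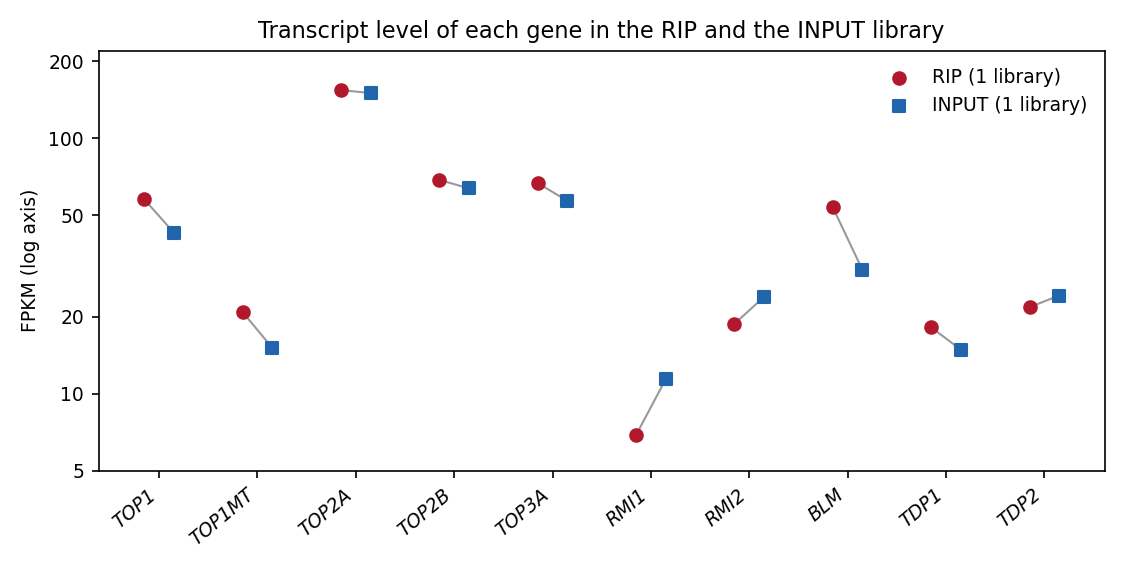
FPKM on a log axis of the 10 genes in the RIP library (circles, left) and the INPUT library (squares, right), 1 library each, joined by a line per gene. TOP2A is the most abundant in both libraries and RMI1 the least, and the steepest lines are those of BLM (53.6 and 30.6 FPKM in RIP and INPUT) and RMI1 (6.90 and 11.4 FPKM).

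In order of level, the 5 most abundant transcripts were the same in both libraries. TOP2A led in both, followed by TOP2B, TOP3A, TOP1 and BLM. TDP2 came sixth and RMI1 last in both, while RMI2 and TOP1MT changed places between them. In the RIP the 10 genes ran over 6.90 to 154 FPKM, and in the INPUT over 11.4 to 150 FPKM. Without replicates it cannot be said which neighbours in that order differ.

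Both type IB enzymes were slightly higher in the RIP. TOP1, the nuclear enzyme that relaxes DNA ahead of transcription and replication (ENSG00000198900.5, chr20:41028818-41124487, plus strand), was at 57.6 FPKM in the RIP library, against 42.7 FPKM in the INPUT library. Its log2 ratio was 0.42, above that of 70.4% of all genes tested. TOP1 has 1 transcript in GENCODE release 29, of 3738 bases, though the release behind the deposited values is not known. With that length its fragment number was about 5091 in the RIP library, against 2332 in the INPUT library. TOP1MT, its relative in mitochondria (ENSG00000184428.12, chr8:143304384-143359979, minus strand), was at 20.9 FPKM in the RIP library, against 15.1 FPKM in the INPUT library, with a log2 ratio of 0.44. The level of TOP1 was 2.76 times that of TOP1MT in the RIP library, against 2.82 times in the INPUT library, so the balance between the nuclear and the mitochondrial enzyme was nearly the same in both libraries. A gene of that release named AL031274.1 shares 184 of the 3689 runs of 50 bases of TOP1, which is 4.99%. Whether or how such fragments were divided is not known.

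The type II enzymes, which pass a duplex through a cut in another, had the ratios closest to 0 of the 10 as deposited. TOP2A, the form of dividing cells that untangles chromosomes before mitosis (ENSG00000131747.14, chr17:40388516-40417950, minus strand), was at 154 FPKM in the RIP library, against 150 FPKM in the INPUT library. That is 7.39-fold the level of the median coding gene for the RIP library, against 7.97-fold for the INPUT library, and the log2 ratio was 0.04. TOP2B, the form found in dividing and resting cells alike (ENSG00000077097.13, chr3:25597905-25664907, minus strand), was at 68.7 FPKM in the RIP library, against 63.7 FPKM in the INPUT library, a log2 ratio of 0.11. TOP2A was 2.25 times as abundant as TOP2B in the RIP library, against 2.36 times in the INPUT library. Both ratios turned negative when each was set against the median gene (-0.09 for TOP2A and -0.02 for TOP2B). They also did when coding genes, without TOP3B and the genes of mitochondrial DNA, were given the same sum in both libraries (-0.13 and -0.06). With equal sums over all genes they were 0.51 and 0.57, where the median of all genes was 0.58. A Y RNA copy of 107 bases inside TOP2A, on the same strand, was listed at 75.4 FPKM in the RIP library, against 42.4 FPKM in the INPUT library.

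TOP3A, the type IA enzyme of the nucleus and of mitochondria (ENSG00000177302.14, chr17:18271428-18315007, minus strand), was at 66.7 FPKM in the RIP library, against 56.9 FPKM in the INPUT library. Its log2 ratio of 0.22 lay above that of 56.7% of all genes tested. It was thus 0.80 below the ratio of TOP3B, the other human type IA enzyme and the bait. GENCODE release 29 lists 20 transcripts for TOP3A, 6 of them with a retained intron. The deposited table gives 1 value for the gene, and which transcripts it covers is not known.

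The partners of TOP3A in the dissolvasome spread over the whole range of the 10 genes. BLM, the helicase that moves the joined strands and is mutated in Bloom syndrome (ENSG00000197299.10, chr15:90717327-90816165, plus strand), was at 53.6 FPKM in the RIP library, against 30.6 FPKM in the INPUT library. The RIP value was 1.75 times that of the INPUT, the log2 ratio was 0.79, and 89.2% of all genes tested had a lower one. RMI1, the protein that binds BLM and TOP3A and stabilises them (ENSG00000178966.15, chr9:83980711-84004074, plus strand), was at 6.90 FPKM in the RIP library, against 11.4 FPKM in the INPUT library. Its log2 ratio was -0.65, and 8.23% of all genes tested, or 5.22% of coding genes, had a lower one. RMI2, the small protein that binds RMI1 (ENSG00000175643.8, chr16:11249619-11381662, plus strand), was at 18.8 FPKM in the RIP library, against 23.9 FPKM in the INPUT library, a log2 ratio of -0.33.

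The balance of these 4 transcripts therefore differed between the libraries. BLM was 7.77 times as abundant per length as RMI1 in the RIP library, against 2.69 times in the INPUT library, a gap of 1.44 between their log2 ratios. TOP3A was 9.67 times as abundant as RMI1 in the RIP library, against 5.00 times in the INPUT library. Such gaps between genes of the same libraries do not move when both libraries are rescaled, apart from the pseudocount. With principal transcript lengths, BLM rested on about 6758 fragments in the RIP library, against 2383 in the INPUT library, and RMI1 on about 556 and 567. The 95% exact binomial interval of the log2 ratio without pseudocount was 0.74 to 0.88 for BLM and -0.89 to -0.55 for RMI1. For RMI2 it was -0.53 to -0.17. Intervals of the other genes also excluded equal levels, even where the ratio was small. That of TOP2A was 0.0081 to 0.0714 and that of TDP2 -0.292 to -0.0121, so this does not set BLM, RMI1 and RMI2 apart. These intervals cover counting error only, rest on the estimated depths, and say nothing of the spread between pulldowns.

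The enzymes that free trapped topoisomerases differed little. TDP1, which cuts the bond left by TOP1 at the 3′ end (ENSG00000042088.13, chr14:89954939-90044768, plus strand), was at 18.2 FPKM in the RIP library, against 14.9 FPKM in the INPUT library, with a log2 ratio of 0.27. TDP2, which cuts the bond left by TOP2 at the 5′ end and has been reported to act on TOP3B as well (ENSG00000111802.13, chr6:24649977-24667033, minus strand), was at 21.8 FPKM in the RIP library, against 24.2 FPKM in the INPUT library, with a log2 ratio of -0.15. TDP1 stood at 0.83 times the level of TDP2 in the RIP library, against 0.61 times in the INPUT library.

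**Figure D2:**
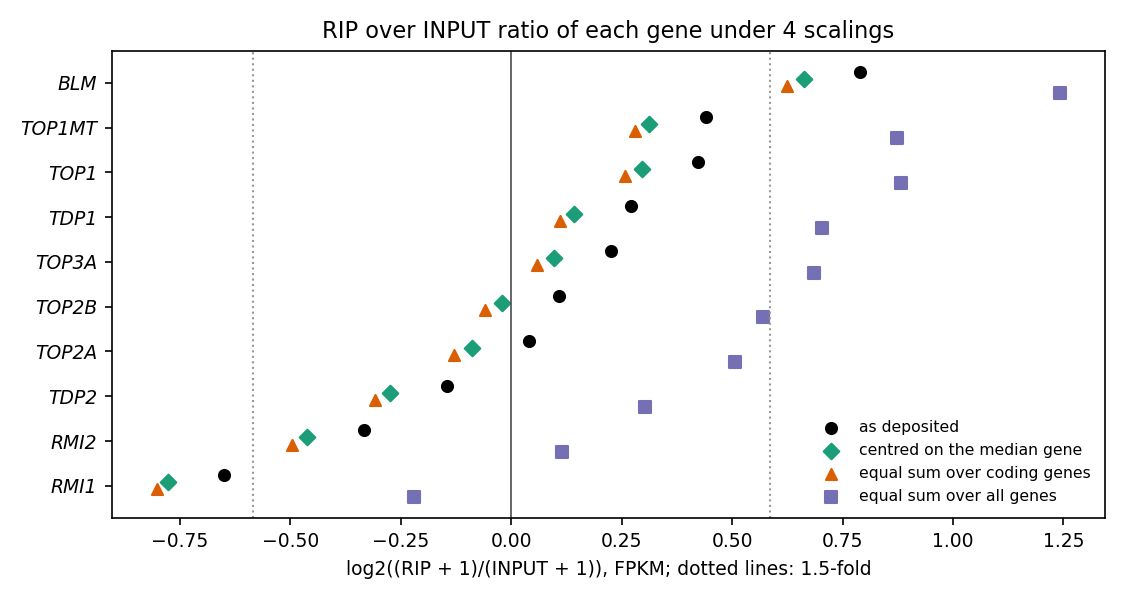
Log2 ratio of RIP over INPUT of each gene, sorted by the value as deposited, under 4 scalings, with dotted lines at 1.5-fold. Apart from the pseudocount, each scaling shifts all genes by the same amount, so their order can hardly move. The equal sum over all genes shifts them to the right, so that 9 of 10 lie above 0, against 7 as deposited and 5 after centring.

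The direction of the small ratios depended on how the libraries were scaled. Summed FPKM was 1090242 in the RIP library, against 1512049 in the INPUT library. Giving both libraries the same sum moved the median of all genes by 0.45, and the share of 2-fold calls that were higher to 95.6%, against 66.2% as deposited. On that scale BLM had a log2 ratio of 1.24, RMI2 0.12 and TDP2 0.30, and RMI1 was the 1 gene below 0, at -0.22. With equal sums over coding genes, TOP3B and the genes of mitochondrial DNA left out of the sum, the median of all genes moved by -0.17. The share of higher calls was 38.8% there, and after centring on the median gene it was 44.8%. BLM was 0.62 and 0.66 on those scales and RMI1 -0.80 and -0.78, so BLM was above 0 and RMI1 below 0 under all 4 scalings. TOP1, TOP1MT, TOP3A and TDP1 were also above 0 under all 4. They were lowest with equal sums over coding genes, at 0.26, 0.28, 0.06 and 0.11.

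Transcript structure was compared with the ratios as a description over 10 genes. The principal transcripts ran over 1457 to 5758 bases, 2 to 36 exons and 36.02% to 57.5% GC. RMI1 and RMI2, the 2 lowest in ratio, have 3 and 2 exons, the fewest of the 10, and BLM has 22. Spearman's rho of the ratio was 0.48 with the number of exons, 0.25 with transcript length, 0.41 with GC content and 0.14 with the INPUT level. Spearman's rho with coding length was 0.26. Pearson's r was 0.51 with exons, 0.36 with length, 0.43 with coding length, 0.28 with GC content and 0.06 with the INPUT level. Without the 2 genes farthest from the median of each feature, r over 8 genes was 0.92 for exons and 0.31 for length. It was 0.69 for coding length, 0.08 for GC content and 0.37 for the INPUT level. For exons the 2 genes left out were TOP2A and TOP2B, with 35 and 36 exons and ratios of 0.04 and 0.11. RMI1 and RMI2, with the fewest exons and the lowest ratios, stayed in. All points share the same 2 libraries.

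Among coding genes the median ratio was higher in longer classes, at -0.09 in the shortest quintile of longest annotated transcript and 0.33 in the longest. BLM, at 0.79, lay above the median of 0.25 of its quintile (4406 to 6096 bases), while TOP2A and TOP2B in the same quintile lay below it. TOP1MT, at 0.44, lay above the median of -0.09 of the shortest quintile, and RMI2 and TDP2 below it. RMI1, at -0.65, lay below the median of 0.17 of its quintile (3239 to 4404 bases), where TOP1, TDP1 and TOP3A lay above.

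**Figure D3:**
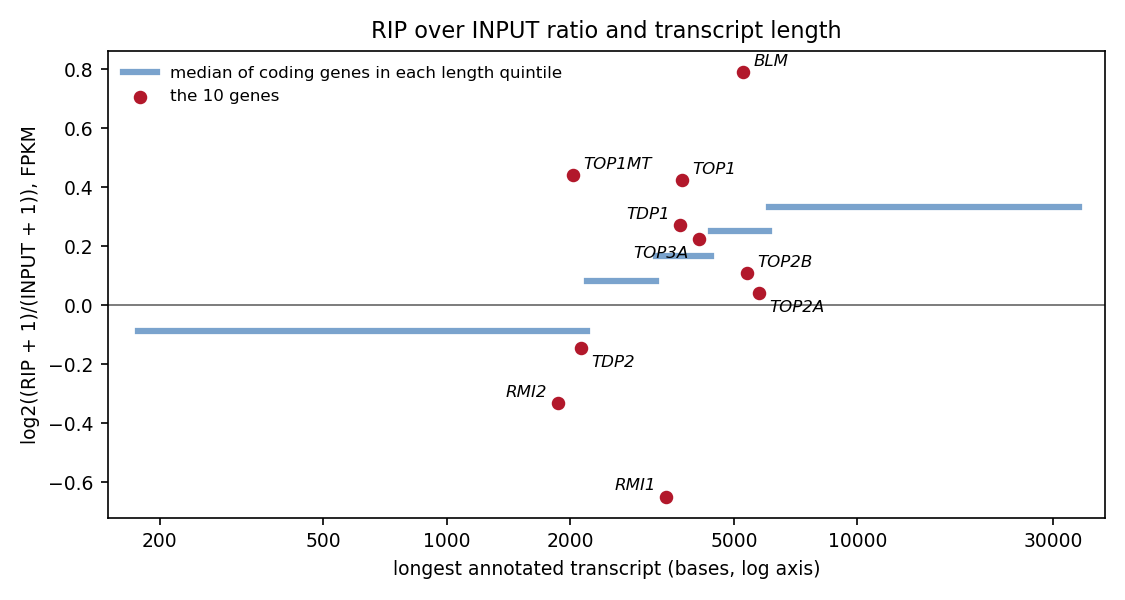
Log2 ratio of RIP over INPUT against the longest annotated transcript (log axis) of the 10 genes (points), with the median ratio of coding genes in each length quintile (bars spanning the quintile). BLM stands 0.79 high where its quintile's median is 0.25, and RMI1 stands at -0.65 where its quintile's median is 0.17.

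Genes that act beside the 10 were counted from lists chosen with earlier results of these data known. Of 22 genes for Holliday junctions and RecQ helicases, which act beside BLM and TOP3A, 9 passed 1.5-fold upward in the RIP and 0 downward, with a median log2 ratio of 0.53, where 19.9% of all genes were higher and 10.2% lower. WRN, another RecQ helicase, was at 41.6 FPKM in the RIP library, against 18.8 FPKM in the INPUT library, and FANCA, a Fanconi anaemia protein, at 170.5 FPKM in the RIP library, against 86.4 FPKM in the INPUT library. The lowest were RPA2 (35.5 FPKM in the RIP library, against 47.7 in the INPUT library) and RPA3 (52.6 and 56.3 FPKM in RIP and INPUT), the small subunits of the protein that coats single-stranded DNA. After centring on the median gene 4 of the 22 were at least 1.5-fold higher, where 13.5% of all genes were. With equal sums over coding genes it was 3, near the 12.3% of all genes, and with equal sums over all genes 18, where 49.8% of all genes were higher. On these scales, in that order, the median of the list was 0.40, 0.37 and 0.96. That of all genes was 0, -0.04 and 0.58. The genes of this list were not set against their length quintiles, whose medians as deposited ran from -0.09 to 0.33.

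Genes of crosslink processing, which remove the protein and repair the break around TDP1 and TDP2, lay near the median gene. Of 25, 5 passed 1.5-fold upward in the RIP and 1 downward, with a median of 0.23. The first count equals the 19.9% of all genes to within 1 gene, and the second lies below the 10.2%. RAD50, of the nuclease complex that trims blocked ends, was at 90.3 FPKM in the RIP library, against 48.9 FPKM in the INPUT library, and its partner MRE11, listed as MRE11A, at 59.4 and 34.3 FPKM in RIP and INPUT. Among the low ratios was that of SUMO2 (253 and 350 FPKM in RIP and INPUT), a small protein attached to others as a tag. Of 10 genes of end joining, which rejoins breaks left by TOP2, 3 were at least 1.5-fold higher and 1 lower, with a median of 0.18, the lower count being at the 10.2% of all genes and the higher one above the 19.9% by 1 gene. The highest were TP53BP1 (50.2 and 23.6 FPKM in RIP and INPUT) and ATM (67.1 and 35.7 FPKM), which act in break signalling, and the lowest were the ligase LIG4 (8.40 and 13.8 FPKM) and NHEJ1 (6.62 and 7.33 FPKM).

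Mitochondrial DNA upkeep was counted beside TOP1MT and TOP3A. Of 12 genes 11 passed the floor, with 2 past 1.5-fold upward in the RIP, 2 downward and a median of 0.25. Among all genes 19.9% were higher and 10.2% lower, so each count is within 1 gene of that share. POLG, the mitochondrial DNA polymerase, was at 74.4 FPKM in the RIP library, against 35.4 FPKM in the INPUT library, and PRIMPOL, a primase, at 17.4 and 10.1 FPKM in RIP and INPUT. TEFM, a mitochondrial transcription factor, was at 14.1 FPKM in the RIP library, against 24.2 FPKM in the INPUT library, and SSBP1, which coats single-stranded mitochondrial DNA, at 92.4 and 150 FPKM in RIP and INPUT. Among other genes with a topoisomerase link, TOPBP1, a replication checkpoint protein, was at 82.7 FPKM in the RIP library, against 55.1 FPKM in the INPUT library, and TOP6BL, listed as C11orf80 and needed for meiotic breaks in mice, at 20.7 and 13.0 FPKM. SPO11, its partner in those breaks, gave no value. The 4 protein partners of TOP3B had a median log2 ratio of 0.14, near that of all genes. TDRD3, which binds TOP3B directly, was at 15.5 and 14.4 FPKM in RIP and INPUT, and the RNA-binding protein FMR1 at 104 and 82.3 FPKM. Its relatives were at 93.1 and 85.0 FPKM (FXR1) and at 38.2 and 34.2 FPKM (FXR2) in RIP and INPUT.

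**Figure D4:**
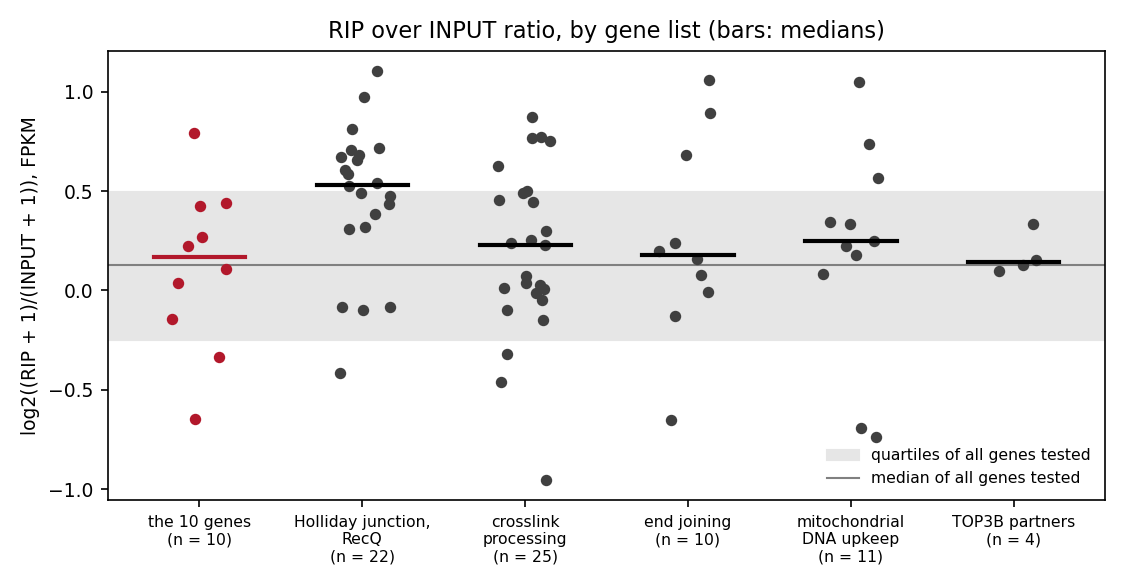
Log2 ratio of RIP over INPUT of the 10 genes and of the gene lists, without TOP3B, 1 point per gene past the floor, with each list's median as a bar and the quartiles and median of all genes tested in grey. The 10 genes have a median of 0.17, near the 0.13 of all genes, and the Holliday junction and RecQ list one of 0.53.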

How the data were processed

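RNA of 1 RIP and 1 INPUT library was compared, each assigned from its sample title. Libraries were made with a stranded total RNA kit, per the labels' protocols. The tools named in the submitters' processing notes were RSEM 1.2.31, STAR 2.6.1, Trimmomatic 0.3 and cutadapt 1.18, with the hg38 build. Not given in the sources used here are their settings and order, whether counting used strand, the annotation release and any low-gene filter. The table deposited by the authors names no unit, and its values were read as FPKM, normalized by the authors to transcript length and library size before deposit, from their decimals and their steps with transcript length. FPKM scales each library to its own total, so abundant RNAs lower all other values.

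Depth and a mean fragment length of 168 bases were estimated as those that best made whole fragments of low values of genes with 1 annotated transcript. With them 59.6% of the 260 RIP genes and 64.4% of the 382 INPUT genes fell within 0.15 of a whole number, a tolerance that covers 30.0% of all fractions. Depths are therefore approximate. Fragment numbers used the principal transcript.

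The pseudocount was 1 FPKM, so ratios understate differences of low genes. The floor was 5 FPKM in at least 1 library. With 1 library per group no test was run. Count tools were not used, as the table holds no counts. GENCODE release 29 (GRCh38, the same assembly as hg38) matched 12983 of 13075 genes. The genes and lists were chosen with earlier results of these data known. Of each list the 2 highest and 2 lowest were named, except 1 gene that is not reported here. Python 3.11.15, numpy 2.4.6, pandas 2.3.3, scipy 1.17.1 and matplotlib 3.10.9 were used.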

Additional observations from a re-analysis of the deposited data

How the results depend on the processing

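No paired analysis was possible because there was a single library on either side. Against 1 gene at least 1.5-fold higher, 1 lower and a median log2 ratio of 0.17, pseudocount 5 and a floor of 20 FPKM each gave 0 lower genes: the pseudocount put RMI1 at -0.46, and the floor left out RMI1 and TDP1. Centring on the median gene moved the median to 0.0384, and equal sums over coding genes to -0.0007, a change of sign. Equal sums over all genes gave 5 higher, 0 lower and a median of 0.63, with 1 gene (BLM) at least 2-fold higher; on that scale 49.8% of all genes were at least 1.5-fold and 21.1% at least 2-fold higher. Among protein-coding genes alone 0.533% were at least 2-fold lower, against 2.5% of all genes. Of 30 values of single genes under the 3 rescalings, 7 moved by less than the half-width of their counting interval and 23 by more, and of 20 under the 2 other pseudocounts 18 and 2. A floor cannot change a ratio. BLM and RMI1 kept their sign wherever they were included, and so did TOP1, TOP1MT, TOP3A and TDP1. By principal transcript length, RMI1, RMI2 and TOP1MT rested on the fewest INPUT fragments, about 567, 472 and 414; by the shortest annotated transcript TOP1MT and TDP1 did, at about 34 each.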

Other observations

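The coding gene nearest to each of the 10 in level over the 2 libraries, by Euclidean distance of log2(FPKM + 1), was PPFIA1 for BLM (53.1 and 30.5 FPKM in RIP and INPUT, distance 0.02) and LGALSL for RMI1 (6.94 and 11.2 FPKM, distance 0.03). For TOP1 it was TTC3, for TOP1MT ABHD11, for TOP2B COPS6, for TOP3A FLOT1, for RMI2 KIAA1586, for TDP1 HOOK1 and for TDP2 GINS2, at distances of 0.009 to 0.02. TOP2A, the most abundant, had the farthest neighbour, PDCD5 (150 and 154 FPKM in RIP and INPUT), at 0.05. With 2 points per gene, such a likeness carries no more than equal levels.

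The annotated span of RMI2 overlaps 12 other genes, 0 of which are in the table. RARB, which overlaps TOP2B by 28 bases on the opposite strand, was at 6.11 FPKM in the RIP library, against 7.02 FPKM in the INPUT library. Of the 5209 runs of 50 bases in the BLM transcript, 93 (1.79%) recur in transcripts of other genes, and in TOP3A 15 of 4067 (0.37%) do. In TOP3B, the bait, 384 of 3058 (12.56%) do, all in 1 other gene, TOP3BP1, which gave no value. Whether or how such fragments were divided is not known.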
